A study of Mus musculus with 2 samples.

Results

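The marker miRNA genes of lineages that lie outside the hippocampus were examined in microRNA sequencing of hippocampus from male mice. The set held 44 of the 2202 miRNA genes counted, and its members were chosen by name from 7 lineages. They mark epithelium (the miR-200 family), sensory cells, the Hox clusters, pluripotent cells, skin, pancreas and liver, and heart and muscle. All 44 names were found in the annotation. The series held 1 group, tissue labelled as a layer of the hippocampus from B6CASTF1/J males aged 14 days, with no treatment named. Its 2 biological replicates each named 3 males by number, while a single donor identifier stands in both labels; how far their spread is technical is therefore unknown. No second condition was compared, and the lineages' own tissues were not analysed here.

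A miRNA gene is transcribed into a hairpin from which mature strands, called arms 5p and 3p, are cut. The arm loaded into Argonaute finds messenger RNAs through its seed, bases 2 to 8. Several miRNAs are made in only a few cell types, so that they serve as markers in a tissue profile. In bulk RNA fewer cells of a type and less RNA per cell cannot be told apart. Replicate 1 had 3793934 counts on miRNA genes and replicate 2 had 2554997. Levels are counts per 1000000 of these (CPM), and 1 count was worth 0.264 CPM in replicate 1 and 0.391 CPM in replicate 2. Counts cover a whole hairpin, so the arms were not separated. The arms of the members held in the reference table are 21 to 25 nucleotides long, so CPM were compared between genes without a length correction. Of the tissue itself, 5 neuron-enriched miRNAs (Mir132, Mir134, Mir137, Mir149 and Mir212) stood between 481 ± 13.8 and 17231 ± 4255 CPM (SD, n = 2). They were picked after their values were known, so they give a scale for high genes and are no test of the label. Not all neural miRNA genes were that high. In replicates 1 and 2, Mir124a-2 had 1.32 and 0.391 CPM, Mir124a-3 had 0 and 1.57 CPM, and Mir9-1 had 11.6 and 22.7 CPM.

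The sequences below, taken from RefSeq on GRCm38.p6, carry the main contrasts of the set, with the seed in capitals. The 3p arms of the miR-200 family come first because they fall into 2 seed groups, and the hairpins of those groups had different levels. Then come arms of the neighbouring muscle genes Mir206 and Mir133b. The rest show a repeated arm (miR-196a-5p, identical in both of its genes) with its single-copy relative, a near-identical pair of the pluripotent cluster, and the miR-10 pair, which was counted apart.
miR-200b-3p: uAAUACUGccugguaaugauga
miR-200c-3p: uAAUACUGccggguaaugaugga
miR-429-3p: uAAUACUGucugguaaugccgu
miR-200a-3p: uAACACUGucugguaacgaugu
miR-141-3p: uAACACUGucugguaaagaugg
miR-206-3p: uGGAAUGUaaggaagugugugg
miR-133b-3p: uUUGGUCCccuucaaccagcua
miR-196a-5p: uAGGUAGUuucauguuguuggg
miR-196b-5p: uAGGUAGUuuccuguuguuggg
miR-291a-5p: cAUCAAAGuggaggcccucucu
miR-291b-5p: gAUCAAAGuggaggcccucucc
miR-10a-5p: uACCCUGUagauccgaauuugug
miR-10b-5p: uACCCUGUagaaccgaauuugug

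The marker genes were detected about as often as miRNA genes in general. Of the 44, 11 reached 2 CPM in each library and are called detected (25% against 19.3% of all 2202 genes), 16 had counts below that, and 17 (38.6%) had 0 counts in both libraries against 65.6% of all genes. Together they held 0.0591% of counts in replicate 1 (2243 counts, 95% Wilson interval 0.0567 to 0.0616) and 0.0501% in replicate 2 (1280 counts, 0.0474 to 0.0529). Such intervals reflect counting alone, because PCR copies cannot be told from separate molecules. The median of the mean CPM was 0.425 over the 44 genes and 0 over all genes. Among detected genes the median was 14.6 CPM for the markers and 88.3 CPM for all.

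**Figure D1:**
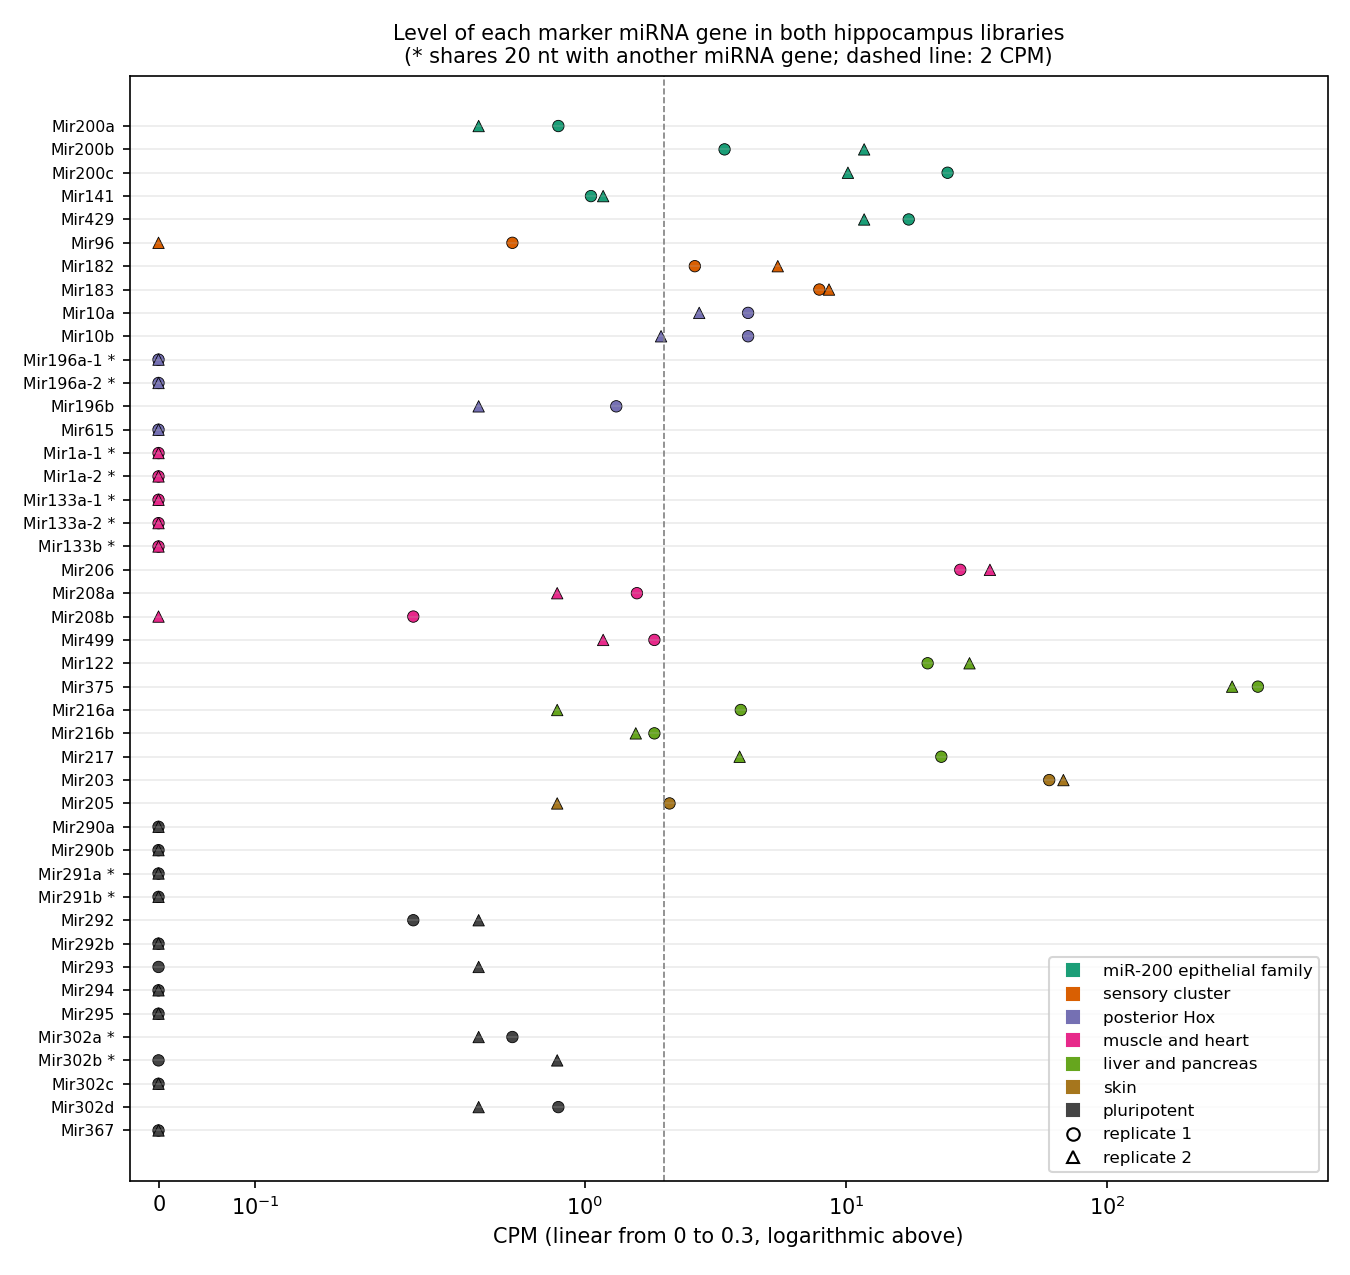
CPM of each of the 44 marker miRNA genes (rows, coloured by lineage) in replicate 1 (circles) and replicate 2 (triangles), on an axis that is linear to 0.3 CPM and logarithmic above. Mir375 lies at 379 and 302 CPM, far to the right of the others, and 17 genes lie at 0 in both libraries.

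Liver and pancreas markers took the largest part. Mir375, an miRNA of pancreatic islets and other neuroendocrine cells, had 1437 counts in replicate 1 and 771 in replicate 2, or 379 CPM (95% Wilson interval 360 to 399) and 302 CPM (281 to 324). It ranked 154 of 2202 by mean CPM and was the 1 marker over 100 CPM in both libraries, where 196 of all genes were. It made up 64.1% and 60.2% of all marker counts. On mm10, Mir375 occupies bases 74900658 to 74900721 of chromosome 1, in no annotated gene of its strand and 1350 bases from Cfap65. Its hairpin shares no stretch longer than 10 nucleotides with another miRNA gene. Without Mir375 the other 43 markers held 212 CPM in replicate 1 and 199 CPM in replicate 2.

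Mir122, the main miRNA of hepatocytes, had 78 and 76 counts, or 20.6 CPM (16.5 to 25.7) and 29.7 CPM (23.8 to 37.2). Mir217 and Mir216a, miRNAs of pancreatic acinar cells that lie 6824 bases end to end on chromosome 11 in an intron of Gm12082, were both higher in replicate 1. Mir217 had 88 counts there and 10 in replicate 2, or 23.2 and 3.91 CPM, and Mir216a had 15 and 2, or 3.95 and 0.783 CPM. Their split within the pair was alike in the libraries, since Mir217 held 85.4% and 83.3% of the counts of both. Mir216b, further upstream, had 7 and 4 counts on its own strand, or 1.85 and 1.57 CPM. Its reads were all lost in the count column that ignored strand, where the overlapping Mir216c on the other strand left both genes at 0.

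**Figure D2:**
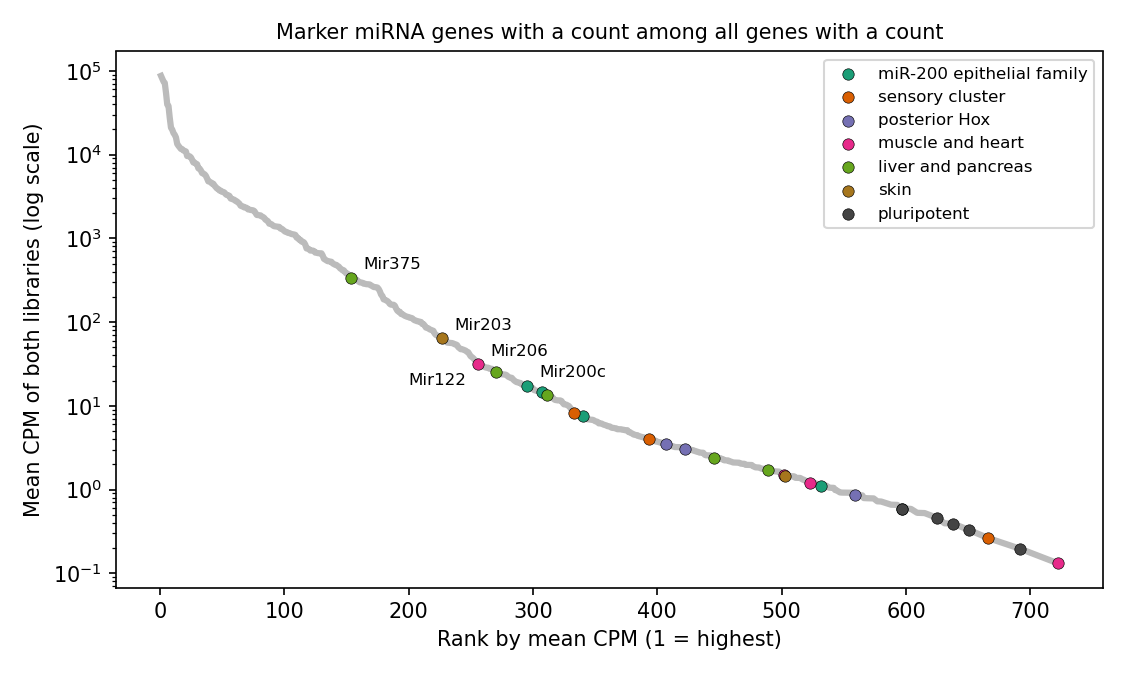
Mean CPM (log axis) against rank for all miRNA genes with a count (grey line), with the 27 marker genes that had a count as points coloured by lineage. Mir375 at rank 154 is the highest marker, and the pluripotent markers with a count lie at ranks of 597 and beyond, where Mir302d hides the point of Mir200a.

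The skin markers differed from each other. Mir203, which drives keratinocytes out of the cell cycle, had 228 and 174 counts, or 60.1 CPM and 68.1 CPM, and ranked 227. It lies at 112130880 to 112130955 of chromosome 12, intergenic and 3321 bases from Aspg. Mir205, an miRNA of basal epithelial cells, had 8 and 2 counts, or 2.11 and 0.783 CPM, under the detection minimum in replicate 2. The Wilson intervals of the pair did not meet in either library.

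The miR-200 family, which represses Zeb1 and Zeb2 and holds cells in the epithelial state, had counts in all 5 genes. A gap lay between the groups set by the 3p seed, though counts covered whole hairpins. The 5p seed AUCUUAC is shared by Mir200a and Mir200b, which lie on either side of the gap. Of the 5, 3 were detected and 2 were under the detection minimum. The AAUACUG genes Mir200b, Mir200c and Mir429 had 172 counts in replicate 1 and 86 in replicate 2, or 45.3 and 33.7 CPM. The AACACUG genes Mir200a and Mir141 had 7 and 4 counts, or 1.85 and 1.57 CPM. The seeds differ by 1 base, U4C from miR-200b-3p to miR-200a-3p, counted from 1 at the 5′ end. Each of the family's loci holds both kinds, so the gap was seen between neighbours at both. In replicate 1, however, the Wilson intervals of Mir200a (0.269 to 2.33 CPM) and Mir200b (2.00 to 5.86 CPM) met. Those of this pair in replicate 2, and of the other pairs across the gap within a locus, did not meet. On chromosome 4, in Ttll10, Mir429 had 66 and 30 counts and Mir200b 13 and 30 (3.43 and 11.7 CPM), while Mir200a between them had 3 and 1. Mir200a also had 2 counts on the opposite strand in each library. On chromosome 6, in an intron of Gm15884, Mir200c had 93 and 26 counts (24.5 and 10.2 CPM) and Mir141, 477 bases end to end with it, had 4 and 3. Mir200a and Mir141 share 17 nucleotides, short of the 20 used here to call a stretch repeated; its part in the gap was not tested.

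**Figure D3:**
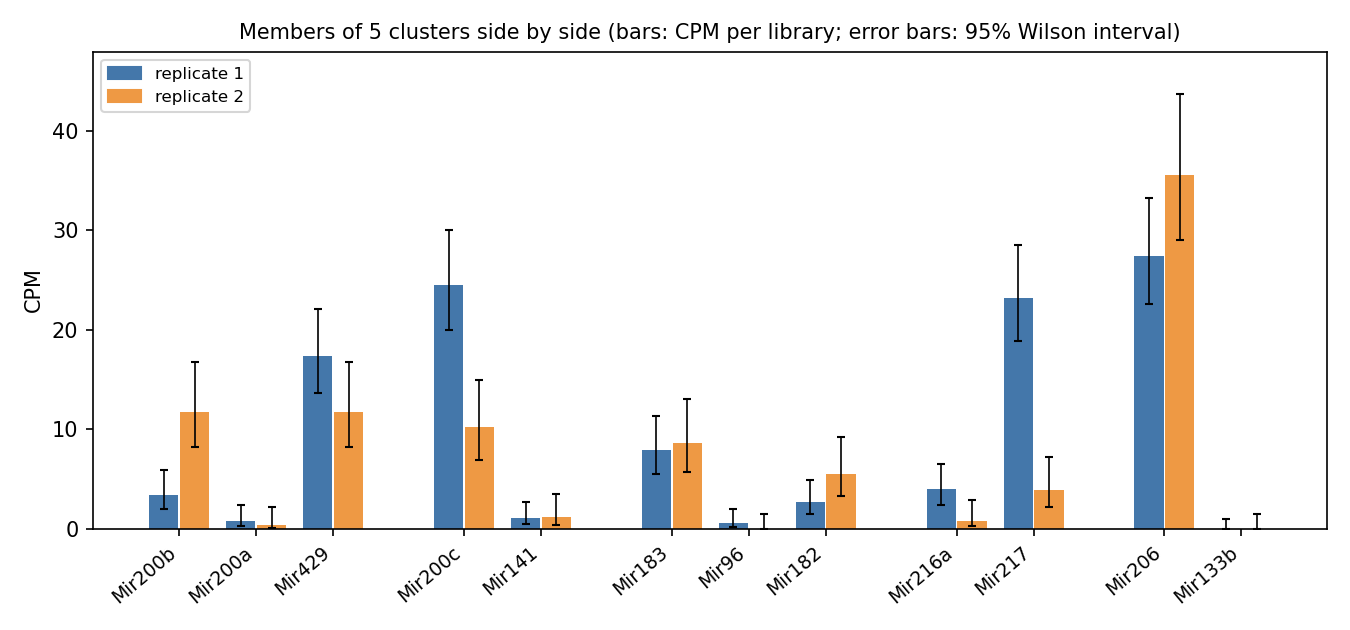
CPM (linear axis from 0) of members of 5 clusters in replicate 1 (blue) and replicate 2 (orange) with 95% Wilson intervals for counting error. Mir200a and Mir141 stand at or below 1.17 CPM beside neighbours at 3.43 CPM or more, and Mir133b is at 0 beside Mir206 at 27.4 and 35.6 CPM.

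The sensory cluster, made in hair cells, photoreceptors and other sensory cells, lies intergenically on chromosome 6 within 3820 bases. Mir183 had 30 and 22 counts, or 7.91 CPM (5.54 to 11.3) and 8.61 CPM (5.69 to 13.04). Mir182 had 10 and 14 counts, or 2.64 and 5.48 CPM, and Mir96 had 2 and 0. Mir183 and Mir96 are neighbours in the genome, and no arm of either shares more than 11 nucleotides with another miRNA gene.

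Of the 9 muscle and heart markers, Mir206 was detected, and 5 (Mir1a-1, Mir1a-2, Mir133a-1, Mir133a-2 and Mir133b) were at 0 with a sequence repeated in another gene, so that their level could not be read. Mir206, a skeletal muscle miRNA, had 104 and 91 counts, or 27.4 CPM (22.6 to 33.2) and 35.6 CPM (29.01 to 43.7). Mir206 (20679010 to 20679082) and Mir133b (20682769 to 20682887) lie on chromosome 1 in exons of the same long non-coding RNA gene, Gm28653, and Mir133b had 0 counts in both libraries. Of the 22 bases of miR-133b-3p, 21 in a row also stand in Mir133a-1 and Mir133a-2. Heart markers within myosin genes were at trace level: Mir208a in an intron of Myh6 with 6 and 2 counts, Mir208b in Myh7 with 1 and 0, and Mir499 in Myh7b with 7 and 3 (1.85 and 1.17 CPM). None of these shares a stretch over 14 nucleotides with another miRNA gene.

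Among the miRNAs of the Hox clusters, only Mir10a was detected. Mir10a, 993 bases from Hoxb4, had 16 and 7 counts, or 4.22 and 2.74 CPM, and Mir10b in Hoxd3 and Hoxd4 had 16 and 5, or 4.22 and 1.96 CPM, just under the minimum. Their 5p arms differ by U12A and share at most 11 nucleotides in a row, so a full-length read matches only 1 of the pair exactly. Mir196b in Hoxa9 had 5 and 1 counts. Mir196a-1, Mir196a-2 and Mir615, an intronic miRNA of Hoxc5, had 0 counts in both libraries.

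The pluripotent markers are miRNAs of embryonic stem cells, where several of them promote a fast cell cycle; 5 of the 14 genes have an arm in the reference table with the seed AAGUGCU. The 14 genes had 6 counts in each library in all, or 1.58 CPM (0.725 to 3.45) in replicate 1 and 2.35 CPM (1.08 to 5.12) in replicate 2. None was detected, and 9 were at 0 in both libraries, a share near the 65.6% of all genes. Of the cluster on chromosome 3 that overlaps Larp7 on the other strand, Mir302d had 3 and 1 counts, Mir302a 2 and 1, Mir302b 0 and 2, and Mir302c and Mir367 none. Of the cluster on chromosome 7, Mir292 had 1 count in each library and Mir293 had 0 and 1. Mir290a, Mir290b, Mir291a, Mir291b, Mir292b, Mir294 and Mir295 had none.

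The 17 zeros were of 2 kinds. Reads that mapped to several places are counted in a row of their own, apart from the genes, and numbered 95.7% as many as the assigned counts in replicate 1 and 106% in replicate 2. Of the 44 markers, 11 share a stretch of 20 nucleotides with a miRNA gene that does not overlap them (49.4% of all genes do), and 9 of these 11 were at 0, where 87.9% of all genes that share a stretch were. The 9 are Mir196a-1, Mir196a-2, Mir1a-1, Mir1a-2, Mir133a-1, Mir133a-2, Mir133b, Mir291a and Mir291b. Of the 33 markers that share none, 8 were at 0 (43.9% of all such genes were) and 11 were detected, 33.3% against 30.6% of all such genes.

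For 7 of the 9 the shared stretch is 21 nucleotides or longer. The arm miR-196a-5p stands whole in both Mir196a-1 and Mir196a-2. Mir1a-1 and Mir1a-2 share 28 nucleotides, Mir133a-1 and Mir133a-2 share 31, and Mir133b shares 21 with each of these. Such zeros give no upper limit on the miRNA, and no count was given to these muscle miRNAs from which a level could be read. The arms that set copies apart also gave no count: miR-196a-1-3p and miR-196a-2-3p share at most 10 nucleotides with another miRNA gene, miR-133b-5p shares 11, and miR-1a-1-5p shares 14. The 22 bases of miR-133b-3p stand whole in no other miRNA gene, unlike miR-196a-5p. For Mir291a and Mir291b the 20 shared bases lie in the 5p arm, whose ends differ (C1G and U22C), while their 3p arms share at most 12 and 11. Mir302a and Mir302b also share 20 nucleotides, of which 18 lie in miR-302b-3p, and each had a count.

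The other 8 zeros, Mir615, Mir290a, Mir290b, Mir292b, Mir294, Mir295, Mir302c and Mir367, have no such repeat among miRNA genes. A count of 0 allows up to 0.791 CPM in replicate 1 and 1.17 CPM in replicate 2, from 3 counts of the total, and 0.473 CPM over both libraries. Copies outside annotated miRNA genes were not searched for. Mir292b and Mir290b each overlap another member on the opposite strand, and the strand column used keeps such pairs apart.

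**Figure D4:**
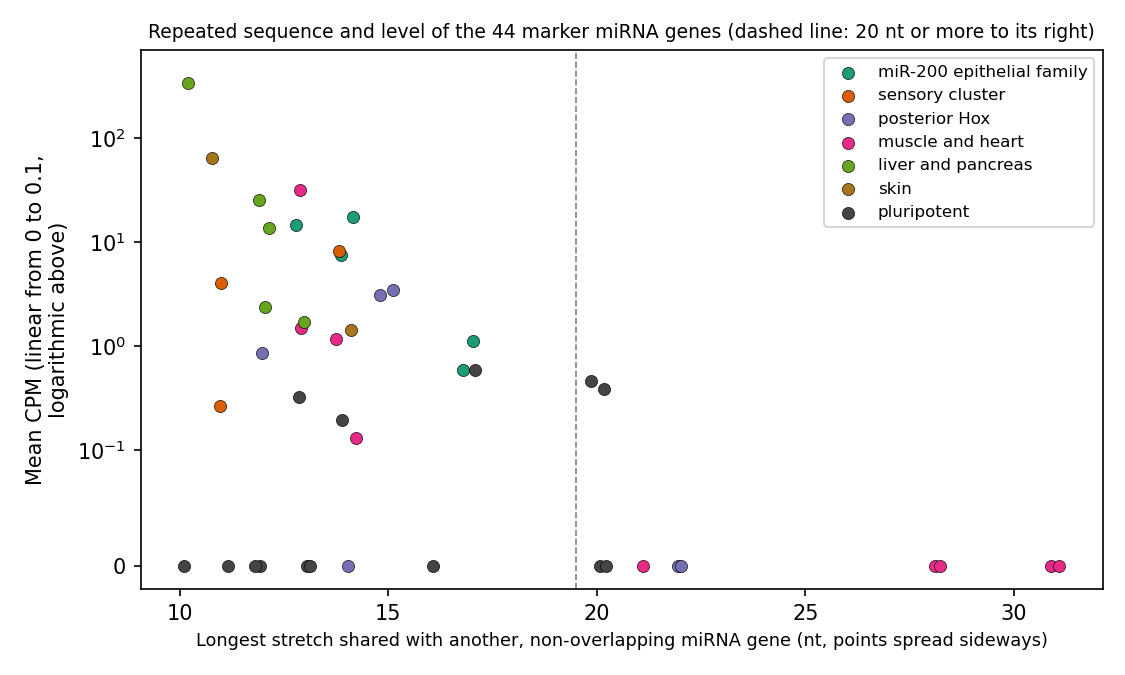
Mean CPM (linear to 0.1, logarithmic above) of the 44 marker genes against the longest stretch their hairpin shares with another miRNA gene, with points spread sideways and coloured by lineage. To the right of the dashed line 9 of 11 genes lie at 0, and to its left 8 of 33 do.

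The libraries were compared gene by gene with a two-sided exact binomial test, adjusted by Benjamini-Hochberg across the 507 genes whose summed counts reached 10. It compares a pair of libraries, not conditions, and its p-values reflect counting alone. Of 16 markers tested, 5 differed (31.3% against 52.1% of all genes tested), 4 of them higher in replicate 1 (25.2% of all genes) and 1 higher in replicate 2 (26.8%). Higher in replicate 1 were Mir217 by 5.93-fold (adjusted p = 2.22e-10), Mir216a by 5.05-fold (adjusted p = 0.0447), Mir200c by 2.41-fold (adjusted p = 8.71e-05) and Mir375 by 1.26-fold (adjusted p = 9.22e-07) in the exact test. Mir200b was 3.43-fold higher in replicate 2 (exact binomial adjusted p = 0.000332). So the AAUACUG genes went in both directions, while Mir429, with 17.4 and 11.7 CPM, did not pass (exact binomial adjusted p = 0.129). Mir122 was near the threshold (exact binomial adjusted p = 0.0501). With the spread between libraries set by edgeR's common dispersion (coefficient of variation 0.377), none of the 16 passed, 1 (Mir217) had an unadjusted p under 0.05 (0.00778, adjusted p = 0.532 by edgeR's exact test), and 2 of all 507 genes (0.394%) passed.

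**Figure D5:**
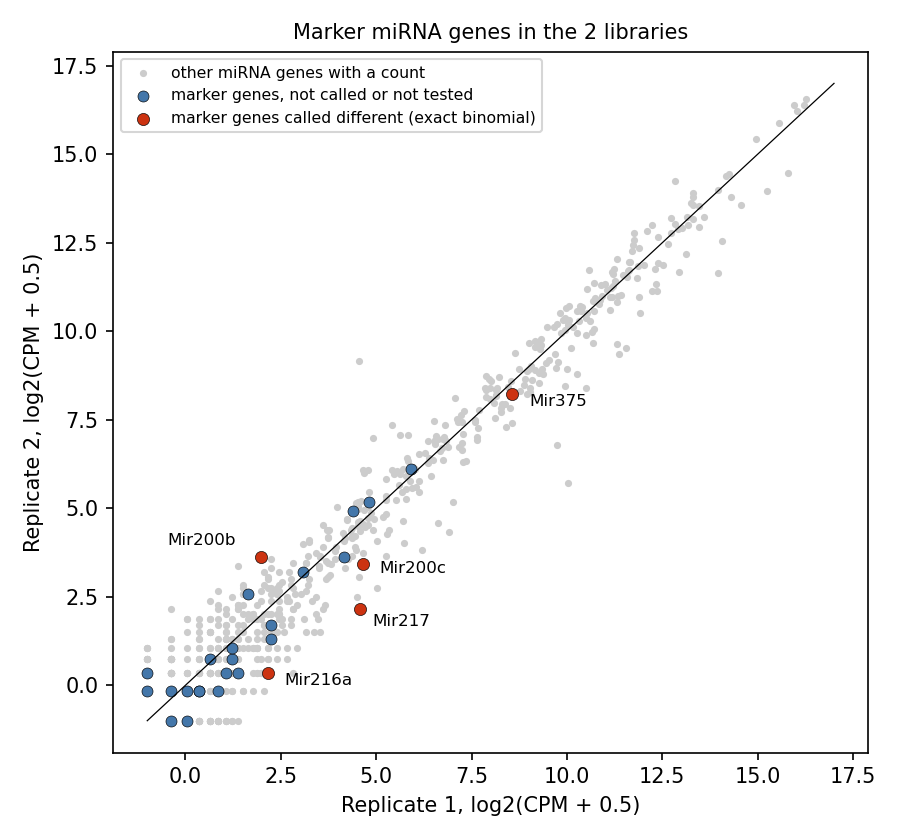
log2(CPM + 0.5) in replicate 2 (vertical axis) against replicate 1 (horizontal axis) for miRNA genes with a count, other genes in grey and markers in blue, or in red where the exact binomial test called them different. Mir217, Mir216a, Mir200c and Mir375 lie below the line of equal level, higher in replicate 1, and Mir200b lies above it.

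For scale, the same counts were made for cells that border or pass through the hippocampus. Of 7 genes of choroid plexus and ciliated epithelium, 4 were detected. The list held 1980 CPM in replicate 1 and 931 CPM in replicate 2. By mean it was led by Mir204 at 662 ± 114 CPM (SD, n = 2). In replicate 1 Mir34c was above Mir204 (857 against 743 CPM), and in replicate 2 it was below (109 against 581 CPM). Of 3 erythroid genes all 3 were detected, and they held 75.4 and 192 CPM. The 44 markers held 591 and 501 CPM, so the order of the markers and the choroid list was the same in both libraries. The ratio of replicate 1 to replicate 2 was 2.13 for the choroid list, 0.392 for the erythroid list and 1.18 for the markers. By lineage the ratio ran from 0.673 for the pluripotent markers to 1.92 for those of the Hox clusters. The lower end rests on 6 counts in each library and the upper end on 37 and 13 counts. With equal counts, 0.673 reflects the library totals alone. Between these ends lay 0.786 for the sensory cluster, 0.828 for muscle and heart and 0.903 for skin. Liver and pancreas had 1.27 and the miR-200 family 1.34. The difference in these ratios between lists was not tested.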

How the data were processed

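Small RNA reads of 2 libraries were counted by the authors on miRNA genes of GENCODE M21 on mm10, per the accompanying text. The deposited tables hold raw counts, not normalized, in 3 columns (either strand, the gene's strand, the opposite strand) with no header. The gene-strand column was identified as the larger stranded total. How reads were trimmed, aligned and assigned is not stated there. Another 4 rows hold unassigned reads and were kept out of library totals. Of all reads in replicates 1 and 2, 41.3% and 20.7% were unmapped and 26.3% and 37.5% multimapping. A further 4.85% and 6.51% lay outside miRNA genes, and 27.5% and 35.3% were assigned.

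All 2202 identifiers matched the annotation. CPM used assigned counts, with 2 CPM in each library for detection and log2(CPM + 0.5) for plots. Hairpins were searched, in either orientation, for 20-nucleotide stretches shared with a non-overlapping miRNA gene. Mature arms came from RefSeq, which gave 76 arms for 40 of the 44 members. Intervals are 95% Wilson intervals. Fold changes are ratios of CPM. edgeR's quasi-likelihood test cannot contrast 1 library with 1, so the exact binomial test was used. Alternatives were edgeR 4.0.16 (exactTest, common dispersion) and DESeq2 1.42.0 (size factors) in R 4.3.3. The common dispersion was estimated from both libraries taken as 1 group, so the difference tested was part of it. The rest used scipy 1.17.1, pandas 2.3.3, numpy 2.4.6 and matplotlib 3.10.9 under Python 3.11.15. The test and the stretch search were tested on simulated data. The simulated counts had no spread between libraries beyond counting, so they give no rate of false calls for these libraries. All 44 members are named, those with at least 10 counts in sum with counts and CPM. The members and lists were chosen with earlier results of these data known. P-values of the exact binomial test measure only the spread of counting between these samples, and those of edgeR add its common dispersion.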

Additional observations from a re-analysis of the deposited data

How the results depend on the processing

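The number of markers detected was 7 at 5 CPM, and stayed within 1.5 times the 11 of the report at 1 CPM, at 10 counts, in the column that ignored strand, under TMM and DESeq2 scaling and without members that share a stretch. It ran from 11 to 14 when a replicate was left out. The summed share of 0.0546% ± 0.00638 (SD, n = 2) was 0.017% of all reads and 0.0206% without Mir375, and ran from 0.0501% to 0.0591% without a replicate. The 17 zeros were 19 without either replicate and 19 in the column that ignored strand. In the opposite-strand column 39 markers were at 0. With 22 nucleotides in place of 20, 6 markers shared a stretch. Counting only a whole mature arm of the RefSeq table found in another gene, an alternative chosen after seeing the data, 2 did, both Mir196a genes. Of the 5 markers that differed between the libraries, 0 remained with edgeR's common dispersion. Other settings gave 4 to 6. The edgeR dispersion was estimated from the same 2 libraries taken as 1 group, so their difference counted as spread. For the 16 single markers tested, 63 of 64 alternatives kept direction and call. Those that changed only the pseudocount could alter neither, and edgeR's test was not among the 64. Mir122 passed with DESeq2 size factors. A search of mature arms against the genome was not run, as no genome sequence was used here. No paired analysis was possible because the series has 1 group. Markers with few counts are limited by depth: 1 count is 0.264 or 0.391 CPM.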

Other observations

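The opposite-strand column held little over the 44 markers, with 9 counts over 5 genes in replicate 1 and 3 counts over 2 genes in replicate 2, and no gene above 2 counts in a library. These were Mir200a with 2 counts in each library, Mir183 and Mir203 with 2 and 0, Mir1a-2 with 2 and 0 and Mir292b with 1 and 1. The counts of Mir1a-2 and Mir292b are those of the genes that overlap them, Mir1b and Mir292. Mir133c, a relative of Mir133b that shares no 20-nucleotide stretch with another miRNA gene, had 0 counts in both libraries.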
